A study of Homo sapiens with 6 samples.

Results

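ALOX5, the gene of an arachidonate lipoxygenase that opens the leukotriene pathway, is described here in ARPE-19 cells with and without iron treatment, together with the genes of the enzymes around it. ALOX5 was chosen because its values on the FAC arrays lay above those on the untreated arrays in an earlier look at these same data, so its levels are given as a description with no test. ALOX5AP, ALOX12, ALOX15, ALOX15B, LTA4H, LTC4S, PTGS1, PTGS2 and PTGES were added by name, and 8 of these 9 genes had a probe named for that gene alone in the platform annotation. ALOX15B was not analysed here. The 9 core genes with ALOX5 are therefore 9 of the 14884 genes that were tested. ARPE-19 is a human cell line that derives from the retinal pigment epithelium, the layer behind the photoreceptors. The cells had been kept confluent in medium with 1% serum over 4 weeks so that they differentiated, and were then moved to medium free of serum. The untreated group held 3 cultures with vehicle, and the FAC group 3 cultures with 250 µM FAC for 2 days. FAC is the usual abbreviation of ferric ammonium citrate, a soluble iron salt. All cultures came from this 1 line, and each was read on 1 array.

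Eicosanoids are signalling lipids made from arachidonic acid, a fatty acid held in membrane phospholipids. Once it is released, lipoxygenases add oxygen to it and lead to leukotrienes and hydroxy fatty acids, while cyclooxygenases lead to prostaglandins, prostacyclin and thromboxane. Lipoxygenases carry a non-heme iron atom at the active site, and ALOX5 works with the membrane protein encoded by ALOX5AP, which presents arachidonic acid to it. Leukotrienes are best known as products of leukocytes, and prostaglandins of many tissues, the eye among them.

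Levels are log2 intensities as deposited, and differences are FAC minus untreated on the same scale, with the standard error (SE) of limma's fit over all genes. A gene is said to have risen or fallen where its p-value, adjusted over all 14884 genes, was under 0.05. By this rule 555 genes (3.73%) changed, of which 280 (1.88%) rose and 275 (1.85%) fell. In 23.4% of all genes the 3 arrays of one group lay wholly above those of the other. The median of the 6 arrays lay between 6.03 and 6.09, and over all probes no pair of arrays had a Pearson's r below 0.991. In such pooled RNA, fewer cells of a type and less RNA per cell cannot be told apart. The table gives no detection calls, and the 3 arrays of a group limit the precision. Probes differ in brightness at the same amount of RNA, so the levels of different genes are not compared, and a gene among the dimmest 33.3% of those tested is named as dim only because a change could be missed there.

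ALOX5 was higher on every FAC array than on any untreated array, and ALOX5AP, the gene of its partner protein, was lower on every FAC array. ALOX5 measured 8.368, 8.312 and 8.368 in untreated cells and 8.834, 9.002 and 8.969 in FAC-treated cells. The 3 untreated values lay close together, and the lowest FAC value was that of replicate 1. The group means were 8.35 ± 0.03 and 8.93 ± 0.09 (SD, n = 3 each), a difference of 0.59 ± 0.06 (SE), or 1.5-fold. By the size of its rise ALOX5 stood at rank 52 among the 14884 genes. Leaving out any 1 array gave differences between 0.55 and 0.64. A long non-coding RNA gene, LOC102724323, overlaps ALOX5 in the RefSeq table and has no named probe, and the strand read by the ALOX5 probe is not given in the sources used here.

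**Figure D1:**
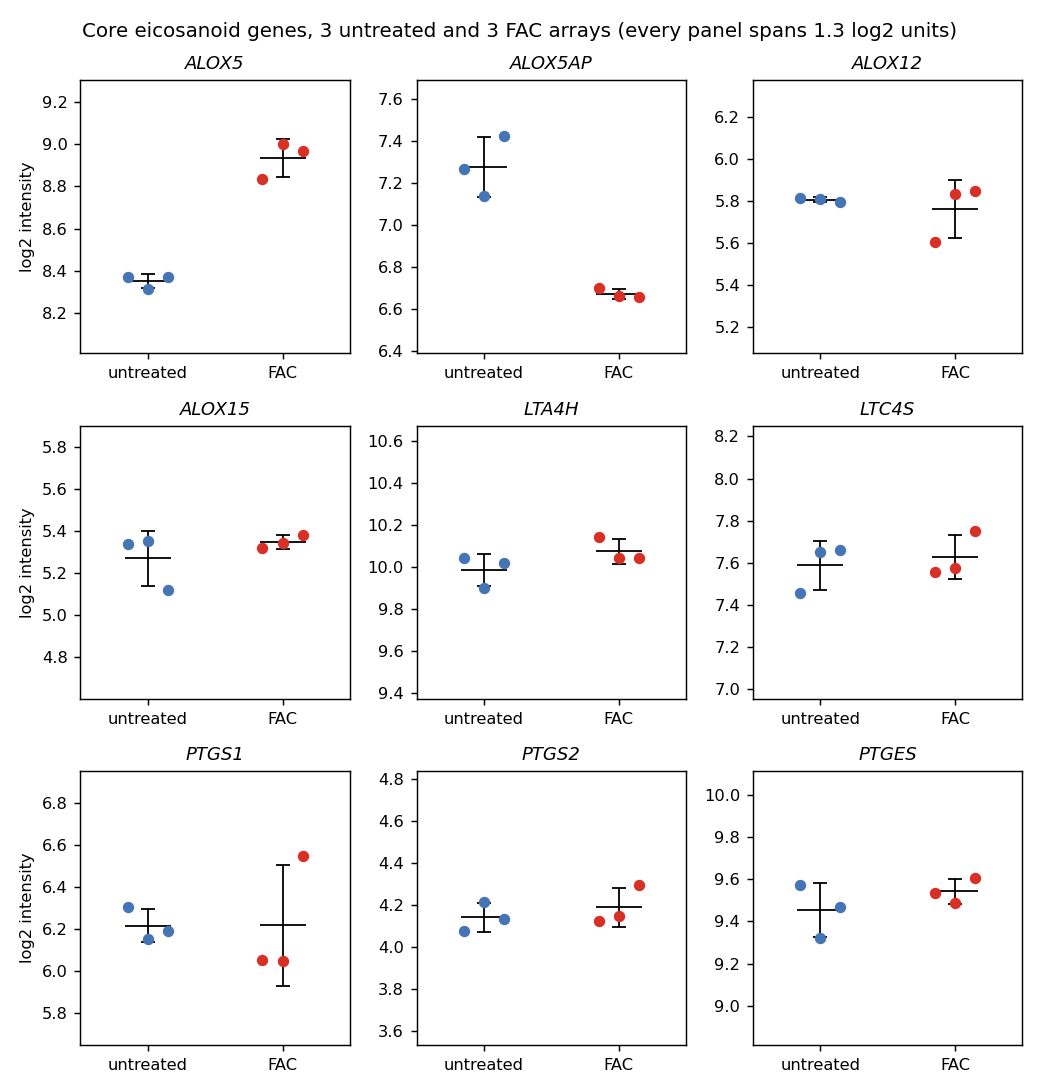
Log2 intensity (vertical axis) of the 9 core eicosanoid genes on the 3 untreated (blue) and 3 FAC (red) arrays; points are arrays, horizontal bars are group means and error bars are SD. The groups do not overlap for ALOX5, higher with FAC (means 8.35 and 8.93), and ALOX5AP, lower with FAC (means 7.28 and 6.67), and overlap for the other 7 genes.

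ALOX5AP encodes the membrane protein that hands arachidonic acid to ALOX5. It measured 7.27, 7.14 and 7.42 in untreated cells and 6.70, 6.66 and 6.66 in FAC-treated cells. The untreated values were spread more widely than the FAC values, and the groups did not overlap. The mean fell from 7.28 ± 0.14 to 6.67 ± 0.02 (SD, n = 3 each), a difference of -0.60 ± 0.08 (SE, adjusted p = 0.00803), which is 1.52-fold lower. It stood at rank 49 among all genes by the size of its fall. The difference lay between -0.67 and -0.53 without any 1 array, and the gene passed the threshold in all 14 alternative settings, with adjusted p between 0.00129 and 0.0435. The changes of ALOX5 and ALOX5AP were thus close in size and opposite in sign, and their log2 differences lay 1.19 apart.

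Promoter sequences were taken from RefSeq tables on GRCh38.p14, which hold 59 of the 73 measured eicosanoid genes and 7 of the 9 core genes. ALOX5, ALOX15 and PTGIS are not among them, so no promoter of these is shown. They are shown for ALOX5AP, which fell, and for FADS1 and PTGER4, which rose and are described below. These 3 genes were picked with their direction of change known, so they are examples and no comparison of falling with rising genes. Each is the 250 bases before the transcription start, read 5′ to 3′ on the strand of the gene. The ALOX5AP stretch is chr13:30713235-30713484 on the plus strand, that of FADS1 is chr11:61817004-61817253 on the minus strand, and that of PTGER4 is chr5:40679665-40679914 on the plus strand.
ALOX5AP: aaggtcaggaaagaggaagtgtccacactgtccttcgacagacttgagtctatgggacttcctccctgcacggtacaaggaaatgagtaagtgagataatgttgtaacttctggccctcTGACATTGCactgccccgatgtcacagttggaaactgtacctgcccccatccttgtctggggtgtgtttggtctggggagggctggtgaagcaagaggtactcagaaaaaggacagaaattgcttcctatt
FADS1: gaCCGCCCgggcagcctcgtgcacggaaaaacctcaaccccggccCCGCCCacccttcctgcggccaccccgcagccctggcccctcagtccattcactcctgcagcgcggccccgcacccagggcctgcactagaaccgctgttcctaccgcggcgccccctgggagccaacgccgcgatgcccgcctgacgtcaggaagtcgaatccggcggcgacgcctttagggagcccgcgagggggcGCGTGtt
PTGER4: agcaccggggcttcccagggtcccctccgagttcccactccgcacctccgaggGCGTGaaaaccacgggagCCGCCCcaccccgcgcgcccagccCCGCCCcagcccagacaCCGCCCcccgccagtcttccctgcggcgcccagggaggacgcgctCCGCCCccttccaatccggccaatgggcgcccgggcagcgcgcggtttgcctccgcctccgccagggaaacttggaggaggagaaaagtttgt
Capitals mark matches, on either strand, to the letters GGGCGG (a GC box, bound by SP1), GCGNGGGCG (EGR1), ACGTG (a core of sites for hypoxia-inducible factors), GCGTG (the other form of that core), TGACNNNGC (NRF2) and TCACNCCAC (a sterol response element, bound by SREBP). The EGR1 letters can overlap a GC box. The ALOX5AP stretch held 1 match, to the NRF2 letters, which occur in 10.9% of 35116 promoter stretches of this length. It held no GC box, which 42.6% of the stretches have, and its share of G and C was 49.6%. The FADS1 stretch held 2 GC boxes and the PTGER4 stretch held 4. Each also held 1 match to GCGTG, which is found in 32.2% of all stretches. G and C made up 72.4% and 72.8% of these stretches. None of the 3 held ACGTG (in 18.5% of all stretches), the EGR1 letters (8.41%) or the sterol element (0.883%). Of core genes that did not pass, PTGES held 2 GC boxes and 1 EGR1 match, LTC4S held 1 GC box, and LTA4H and PTGS2 held no GC box. GCGTG was matched 1 time in PTGES, 1 time in LTC4S and 3 times in LTA4H, and PTGS2 held no match to it. Their shares of G and C were 61.2%, 65.2%, 58.8% and 50.4%. Matches were not read gene by gene for the core genes ALOX12 and PTGS1, or for ACSL1, MGST1 and EGR1, which passed the test. A link between these letters and the direction of change was not tested. A match describes letters only and shows no binding.

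Downstream of ALOX5, the enzymes that turn its unstable product into leukotrienes did not pass the test. LTA4H, the hydrolase that makes leukotriene B4, measured 10.04, 9.90 and 10.02 in untreated cells and 10.14, 10.04 and 10.04 with FAC. These ranges met, with a difference of 0.09 ± 0.06 (adjusted p = 0.531) and a 95% interval from -0.05 to 0.23. LTC4S, the synthase that joins glutathione to make the cysteinyl leukotrienes, measured 7.45, 7.65 and 7.66 without and 7.56, 7.57 and 7.75 with FAC, values that overlapped throughout. Its difference was 0.04 ± 0.08 (95% interval -0.15 to 0.22, adjusted p = 0.861). MGST2, a microsomal glutathione transferase that can make the same product, was at 8.67 ± 0.17 and 8.86 ± 0.08 (0.19 ± 0.09, adjusted p = 0.337). In the leukotriene arm as listed, 8 of 12 genes were measured, and 12.5% of these passed, beside 3.73% of all genes. ALOX5AP fell and none of the other 7 passed. Among these, DPEP2, a dipeptidase that acts on cysteinyl leukotrienes, was dim and had a difference of 0.19 ± 0.06 (adjusted p = 0.134) and COTL1, a small actin-associated protein that binds ALOX5, one of -0.15 ± 0.06 (adjusted p = 0.227), in each case with groups that did not overlap.

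Leaving aside ALOX5, which is described without a test, none of the measured lipoxygenases passed. ALOX12, the platelet-type enzyme, measured 5.81, 5.81 and 5.79 in untreated cells and 5.61, 5.84 and 5.85 with FAC. FAC replicate 1 was the lowest of the 6 and the other FAC values the highest. The difference was -0.04 ± 0.07 (95% interval -0.21 to 0.13, adjusted p = 0.822), and it turned to 0.04 without FAC replicate 1. ALOX15, an enzyme that can oxygenate fatty acids still bound in membranes, measured 5.34, 5.35 and 5.12 against 5.32, 5.34 and 5.38 (0.08 ± 0.07, 95% interval -0.09 to 0.25, adjusted p = 0.658). Both genes were dim, at percentiles 24.1 and 17.4 of all tested genes by mean level. ALOXE3, which acts with other lipoxygenases in the skin barrier, measured 6.83, 6.81 and 6.77 in untreated cells and 7.03, 6.96 and 7.20 with FAC. All its FAC values lay above the untreated ones, yet the difference of 0.26 ± 0.07 missed the threshold (adjusted p = 0.100), as it did in all 14 alternative settings.

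On the cyclooxygenase side the gene of prostacyclin synthase rose, while the genes of the cyclooxygenases themselves did not pass. PTGIS, which converts prostaglandin H2 to prostacyclin, measured 9.96, 9.71 and 9.90 in untreated cells and 10.53, 10.59 and 10.59 with FAC. The FAC values lay within a narrow range, all above the untreated ones. The mean rose from 9.86 ± 0.13 to 10.57 ± 0.04 (SD, n = 3 each), a difference of 0.71 ± 0.07 (SE, 1.64-fold, adjusted p = 0.00385) at rank 23 of the rises over all genes. It passed in all 14 alternative settings (adjusted p between 5.15e-05 and 0.0265). PTGS1, the cyclooxygenase that most tissues make all the time, measured 6.31, 6.15 and 6.19 against 6.05, 6.05 and 6.55. FAC replicate 3 was the highest of the 6 and the other FAC arrays the lowest, so the difference was 0.0018 ± 0.13 (95% interval -0.30 to 0.30), and -0.16 without FAC replicate 3. PTGS1 was dim, at percentile 31.6 of all tested genes by mean level. PTGS2, the inducible cyclooxygenase, measured 4.08, 4.21 and 4.13 against 4.13, 4.15 and 4.29 (0.05 ± 0.07, 95% interval -0.11 to 0.20, adjusted p = 0.779). Its probe was at percentile 6.0 of all tested genes, so a response of PTGS2 could be missed here.

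PTGES, the inducible synthase of prostaglandin E2, measured 9.57, 9.32 and 9.47 in untreated cells and 9.54, 9.49 and 9.61 with FAC. The groups overlapped and the difference was 0.09 ± 0.08 (95% interval -0.09 to 0.26, adjusted p = 0.620). Of 10 measured prostanoid synthases, PTGIS rose (10%, beside 3.73% of all genes) and the other 9 did not pass. Their differences ran from -0.06 in PTGES2, another prostaglandin E synthase, to 0.10 in PTGDS, a prostaglandin D synthase. TBXAS1, the thromboxane synthase that takes the same substrate as PTGIS, was dim and had a difference of -0.0058 ± 0.10 (95% interval -0.24 to 0.23). None of 4 measured genes of prostaglandin breakdown passed. The closest was PTGR1, a reductase that inactivates prostaglandins and leukotriene B4, at 0.20 ± 0.07 (adjusted p = 0.190), and next PTGR3 at 0.02 ± 0.07 (adjusted p = 0.891). HPGD, the dehydrogenase that begins the breakdown of prostaglandins, was dim and differed by 0.02 ± 0.05.

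**Figure D2:**
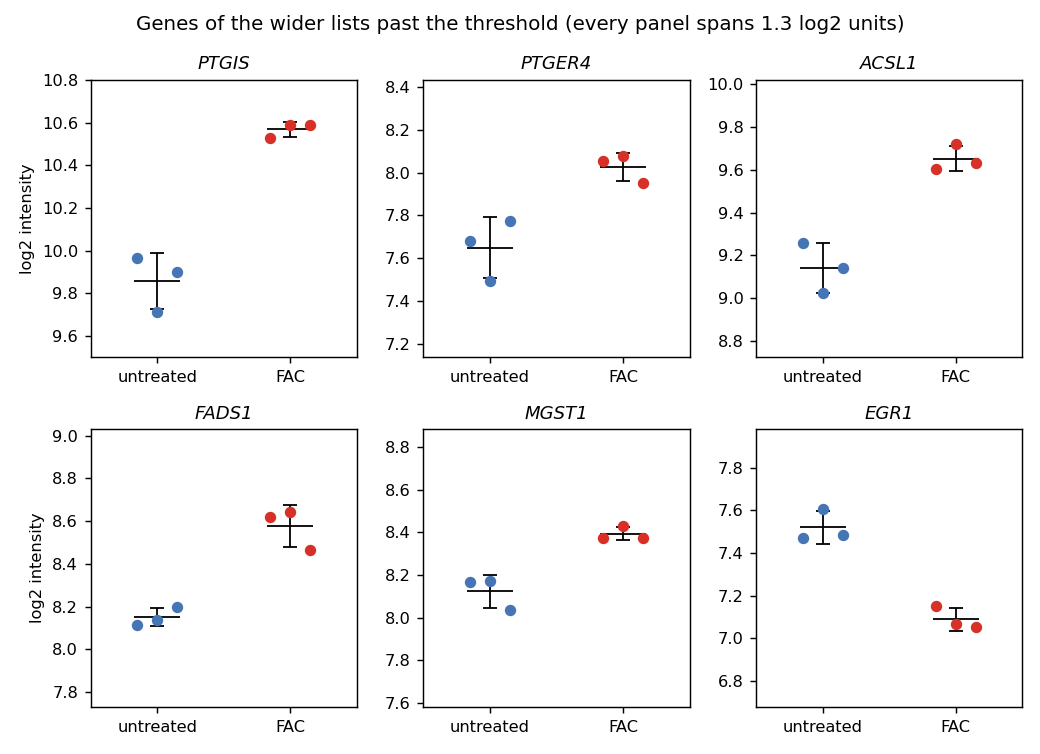
Log2 intensity (vertical axis) of the 6 genes past the threshold outside the core list, on the 3 untreated (blue) and 3 FAC (red) arrays; points are arrays, horizontal bars group means and error bars SD. PTGIS, PTGER4, ACSL1, FADS1 and MGST1 are higher with FAC and EGR1 is lower, and in none of the 6 do the groups overlap.

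Of 15 measured eicosanoid receptors, PTGER4 rose (6.67%, beside 3.73% of all genes) and no other passed. PTGER4, a receptor of prostaglandin E2 that raises cyclic AMP, measured 7.68, 7.49 and 7.77 in untreated cells and 8.05, 8.08 and 7.95 with FAC. The groups did not overlap, and the difference was 0.38 ± 0.08 (1.3-fold, adjusted p = 0.0458). This call was near the threshold and was lost with each array centred on its median (adjusted p = 0.0621) and without any 1 of the 6 arrays (adjusted p between 0.0651 and 0.167). PTGIR, the receptor of prostacyclin, had a difference of 0.03 ± 0.11 (95% interval -0.22 to 0.28). Of the leukotriene receptors, LTB4R had a difference of -0.17 ± 0.10, CYSLTR1 0.03 ± 0.10 and CYSLTR2 -0.08 ± 0.07. The cysteinyl leukotriene receptors were at percentiles 2.62 and 5.23 by mean level, and 8 of the 15 receptors were among the dimmest 33.3% of tested genes. OXER1, a receptor of oxidised products of the ALOX5 pathway, was at 6.87 ± 0.02 and 7.04 ± 0.14 (0.17 ± 0.08, adjusted p = 0.295).

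A list of 14 measured genes covers enzymes that make long fatty acids such as arachidonic acid, activate them or put them into phospholipids. Of these, ACSL1 and FADS1 rose (14.3%, beside 3.73% of all genes), and none fell. ACSL1, which activates long fatty acids with coenzyme A, measured 9.26, 9.02 and 9.14 in untreated cells and 9.60, 9.72 and 9.63 with FAC. All FAC values were above the untreated ones, by 0.51 ± 0.07 on average (1.43-fold, adjusted p = 0.0111), but without untreated replicate 3 the gene did not pass (adjusted p = 0.0530). FADS1, the desaturase that forms arachidonic acid, measured 8.12, 8.14 and 8.20 against 8.62, 8.64 and 8.47. These groups lay apart too, by 0.43 ± 0.06 (1.35-fold, adjusted p = 0.0148). FADS1 passed without untreated replicate 2 or FAC replicate 3, and missed the threshold in the other 4 leave-one-out fits (untreated replicates 1 and 3 left out, adjusted p = 0.0534 and 0.0514; FAC replicates 1 and 2 left out, adjusted p = 0.0771 and 0.0559).

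FADS2, the desaturase that acts earlier in the same route, measured 8.24 ± 0.12 and 8.55 ± 0.06, and its difference of 0.31 ± 0.07 missed the threshold (adjusted p = 0.0656). LPCAT1, an acyltransferase of phosphatidylcholine, lay lower on all FAC arrays by a difference of -0.22 ± 0.06 that missed it as well (adjusted p = 0.0823). ACSL4, which prefers arachidonic acid, and LPCAT3, which puts it into phospholipids, are known for their part in lipid peroxidation. ACSL4 was at -0.13 ± 0.06 (adjusted p = 0.326) and LPCAT3 at 0.18 ± 0.06 (adjusted p = 0.161), in opposite directions and in each case with groups that did not overlap. Of 20 listed genes of arachidonic acid release, chiefly phospholipases, only PNPLA8 had a named probe, and it measured 8.79 ± 0.01 and 8.80 ± 0.12 (0.01 ± 0.07, adjusted p = 0.961). The other 19, and all 12 listed cytochrome P450 and epoxide hydrolase genes, were not analysed here.

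Of 6 measured genes of enzymes that reduce or detoxify lipid hydroperoxides, the products of lipoxygenases, MGST1 rose (16.7%, beside 3.73% of all genes). This microsomal glutathione transferase measured 8.17, 8.17 and 8.03 in untreated cells and 8.37, 8.43 and 8.38 with FAC. The groups lay apart by 0.27 ± 0.06 (1.21-fold, adjusted p = 0.0494), but the gene missed the threshold with median centring (adjusted p = 0.0668) and without any 1 of the 6 arrays (adjusted p between 0.0733 and 0.152). GPX4, the glutathione peroxidase that reduces hydroperoxides within membranes, measured 11.15 ± 0.07 and 11.10 ± 0.05 (-0.05 ± 0.06, 95% interval -0.18 to 0.09). GPX1 was at -0.03 ± 0.06 and PRDX6, a peroxiredoxin that also has phospholipase activity, at 0.14 ± 0.05 (adjusted p = 0.215).

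Among 11 measured genes that are known to act on the ALOX5 promoter or on the ALOX5 protein, EGR1 fell and none rose. That is 9.09% of the 11, beside 3.73% of all genes. EGR1, an early-response transcription factor that binds GC-rich sites, measured 7.47, 7.61 and 7.48 in untreated cells and 7.15, 7.07 and 7.05 with FAC. Its groups did not overlap, and the difference was -0.43 ± 0.06 (adjusted p = 0.0116). A dimmer probe of EGR1 gave -0.02, the mean of its probes did not pass (-0.23, adjusted p = 0.108), and without FAC replicate 2 the adjusted p was 0.0505. SP1, the factor of the GC boxes for which the ALOX5 promoter is known, measured 9.87 ± 0.04 and 9.82 ± 0.02 (-0.04 ± 0.05, 95% interval -0.16 to 0.08). SMAD3 and SMAD4, which carry the TGF-beta signal, were at -0.10 ± 0.06 and -0.07 ± 0.05, and NFKB1 was at 0.17 ± 0.06 (adjusted p = 0.160). The kinase genes MAPKAPK2 and MAPK3, whose products can phosphorylate ALOX5, were at 0.07 ± 0.05 and 0.05 ± 0.05.

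**Figure D3:**
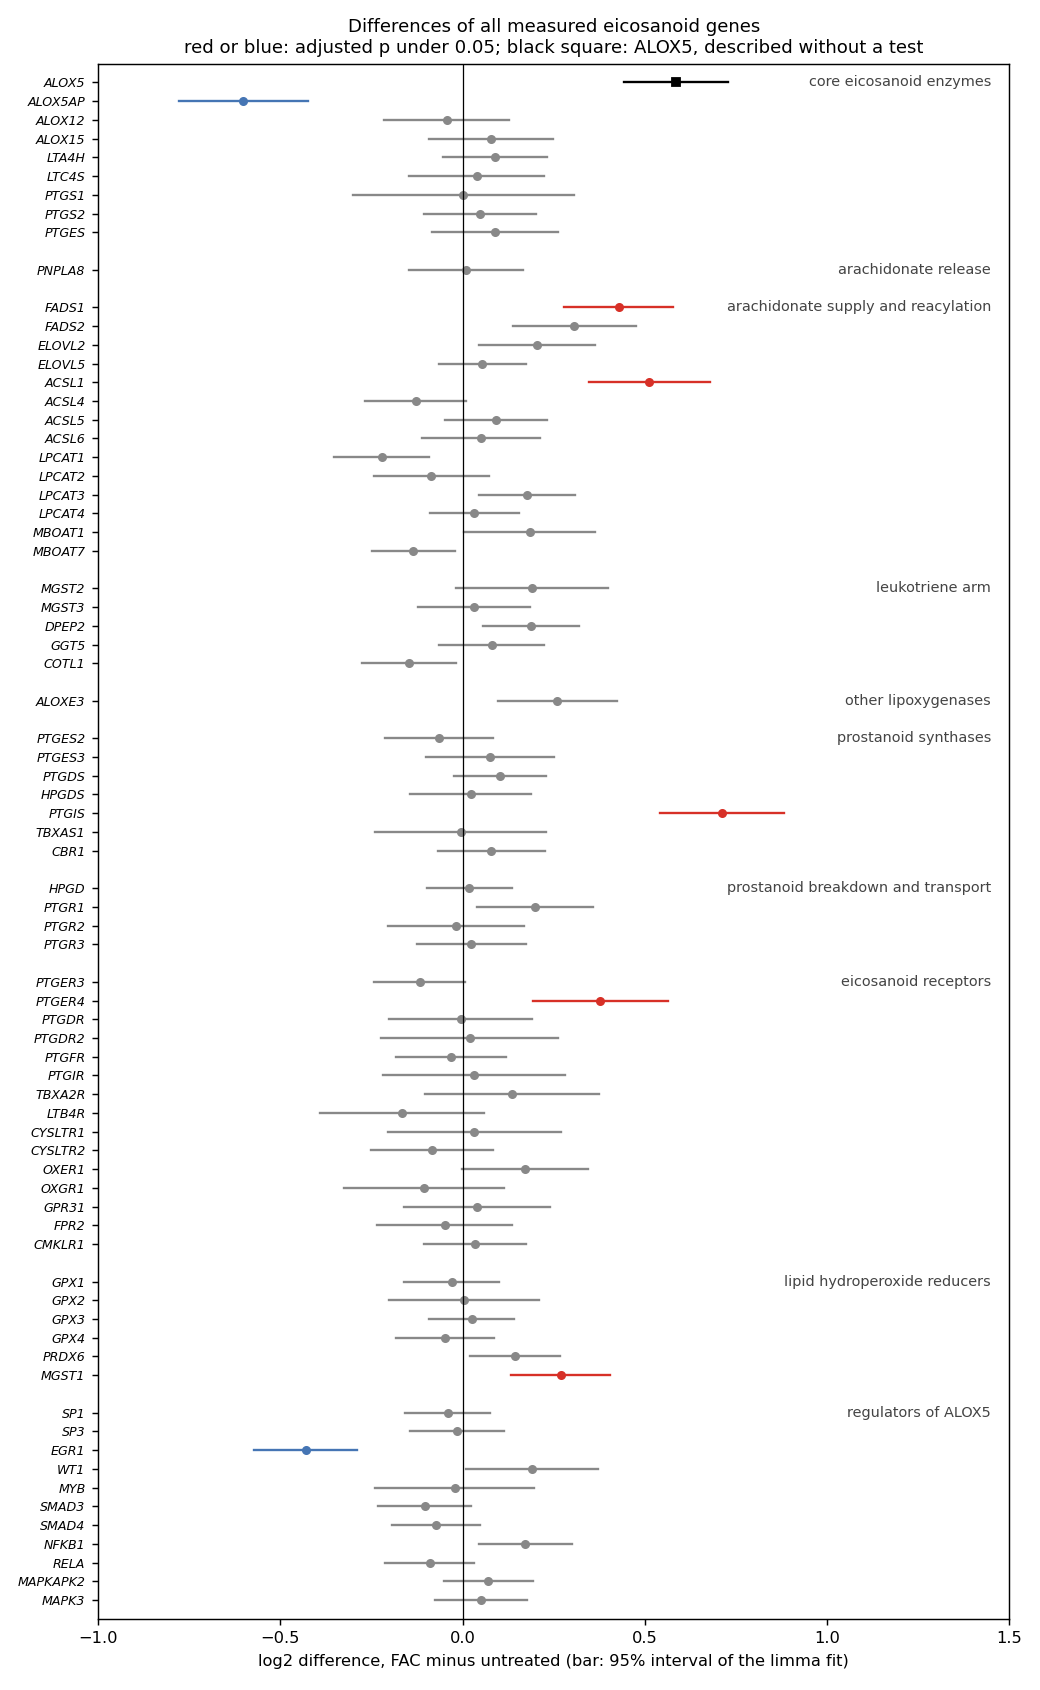
Log2 difference of FAC minus untreated (horizontal axis) for the 73 measured eicosanoid genes, grouped by list with each gene drawn once; bars are 95% intervals of limma's fit. Red and blue mark genes past an adjusted p of 0.05, and the black square is ALOX5 (0.59). The 7 coloured genes run from ALOX5AP (-0.60) to PTGIS (0.71).

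Over all eicosanoid lists, without ALOX5 and without the cell type marker lists, 7 of 72 measured genes passed the test. PTGIS, ACSL1, FADS1, PTGER4 and MGST1 rose, and ALOX5AP and EGR1 fell. That is 9.72% of these genes, beside 3.73% of all 14884 genes. At an unadjusted p under 0.05 there were 20 of the 72 (27.8%), beside 17.2% of all genes, and in 25 (34.7%) the groups did not overlap, beside 23.4% of all genes. The median difference was 0.03, beside -0.0041 over all genes. Of these 20 and 25 genes, 8 and 9 came from the 14 that make long fatty acids, activate them or put them into phospholipids. These were 57.1% and 64.3% of that list. The 72 genes also include the 11 regulators, with EGR1, and the 6 genes around lipid hydroperoxides, with MGST1. The lists were written with results of these data known and hold fewer of the dimmest genes (29.2%) than the 33.3% of all, so these shares are descriptions. Among the 8 core genes without ALOX5 the count was 1 fall and no rise in all 14 alternative settings, and 4 of the 8 were dim. The count of 6 genes in the wider lists was lower whichever 1 array was left out. It was 3 without untreated replicate 1 or FAC replicate 1, 2 without untreated replicate 3 or FAC replicate 2, and 4 without untreated replicate 2 or FAC replicate 3. In the same fits the count over all genes fell too, from 555 to between 147 and 447, so the loss was not particular to these lists.

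**Figure D4:**
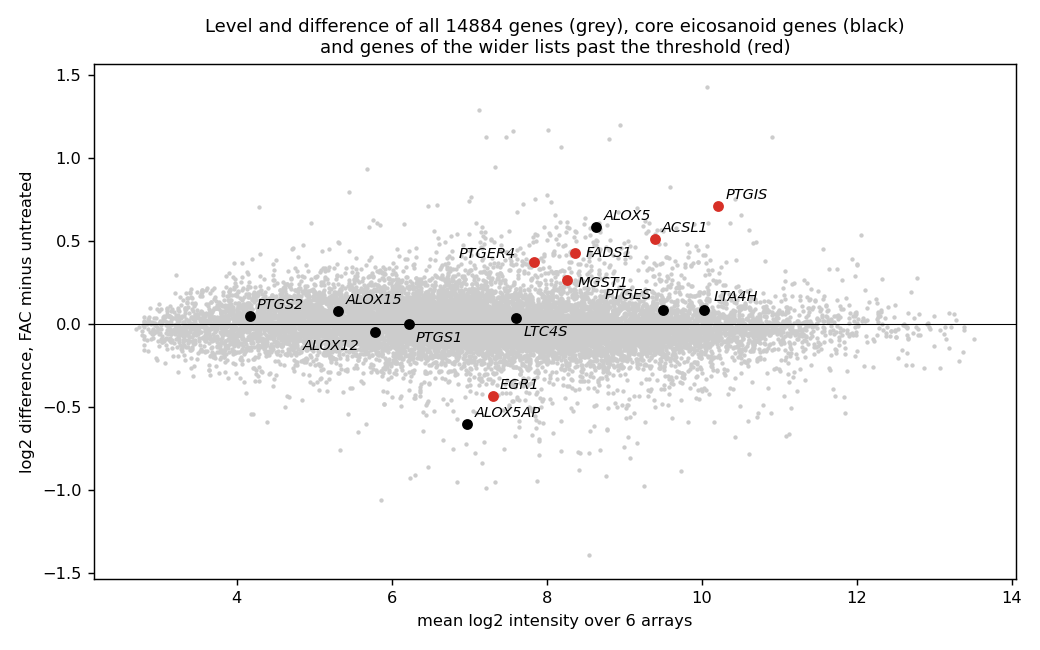
Mean log2 intensity over the 6 arrays (horizontal axis) and log2 difference of FAC minus untreated (vertical axis) for all 14884 genes (grey), the 9 core eicosanoid genes (black) and the 6 genes of the wider lists past the threshold (red). ALOX5 (0.59) and PTGIS (0.71) lie toward the upper edge of the cloud and ALOX5AP (-0.60) toward the lower edge, while PTGS2, ALOX15 and ALOX12 lie among the dim genes near 0.

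The genes whose profiles were most like that of ALOX5 were sought by the root mean square difference of log2 values, each centred on the mean of the gene over the 6 arrays, among genes of at least median level. The 5 nearest were AMOT (0.0195), PPL (0.0268), FBLN5 (0.0526), BCL2L11 (0.0551) and ITPKB (0.0599). AMOT encodes a junction-associated protein of the Hippo pathway, PPL a plakin of desmosomes, FBLN5 an elastic fibre protein, BCL2L11 a pro-apoptotic protein and ITPKB an inositol phosphate kinase. AMOT measured 8.20, 8.13 and 8.19 in untreated cells and 8.70, 8.85 and 8.78 with FAC. As for ALOX5, its lowest untreated value was on replicate 2 and its lowest FAC value on replicate 1. The measure chose AMOT on these same values, so this shared order is no separate result. The differences of the 5 genes ran from 0.51 in ITPKB to 0.66 in BCL2L11. The measure ranks every gene with a rise of this size and spread close to ALOX5, and its 6 points fall into the 2 groups.

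The same measure, applied to ALOX5AP after its values had been seen, named LRP1B (0.0425), SMAD7 (0.0430), LUM (0.0577), GXYLT2 (0.0577) and ADAMTSL3 (0.0636). LRP1B belongs to the family of lipoprotein receptors, SMAD7 is an inhibitor of TGF-beta signalling, LUM encodes the matrix proteoglycan lumican, GXYLT2 a xylosyltransferase and ADAMTSL3 a matrix protein. SMAD7 measured 9.55, 9.46 and 9.68 in untreated cells and 9.02, 8.90 and 9.02 with FAC. As in ALOX5AP, its untreated values were highest on replicate 3 and lowest on replicate 2, and the FAC values were all lower. The measure chose SMAD7 on these same values, so the shared order is no separate result.

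**Figure D5:**
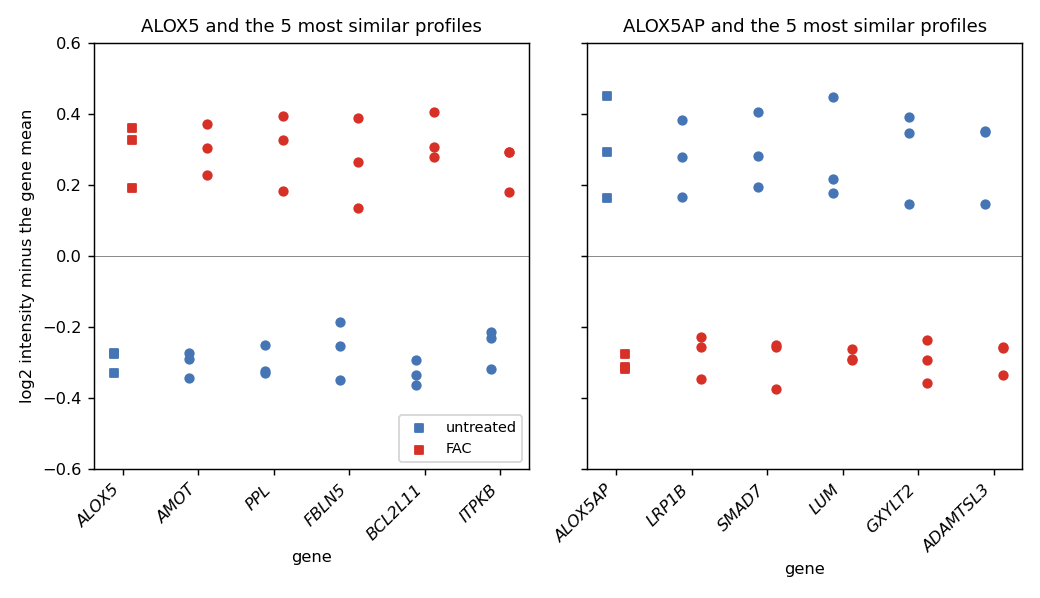
Log2 intensity minus the mean of each gene over the 6 arrays (vertical axis) for ALOX5 (left, squares) and ALOX5AP (right, squares) and the 5 genes most like each (circles), with untreated arrays in blue and FAC arrays in red. The differences of the genes on the left run from 0.51 (ITPKB) to 0.66 (BCL2L11), and those on the right from -0.59 (GXYLT2) to -0.55 (LRP1B) beside ALOX5AP at -0.60.

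In the RefSeq order the 3 nearest genes with a named probe before ALOX5 were RSU1P2, ANKRD30BP3 and MIR3156-1, and those after it were TIMM23, NCOA4 and ANXA8L1. Between 5 and 28 other genes lay between each of them and ALOX5. None passed the test, and their differences ran from -0.06 in MIR3156-1 to 0.20 in RSU1P2. NCOA4, which delivers ferritin to the lysosome, measured 10.51 ± 0.01 and 10.54 ± 0.01 (0.02 ± 0.05, adjusted p = 0.849).

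Markers of the labelled cell type and of leukocytes, the cells best known for ALOX5 and ALOX5AP, were read on the same arrays. Of 14 measured markers of retinal pigment epithelium none passed, and their mean level lay between 7.93 and 8.14 on the untreated arrays and between 8.01 and 8.06 on the FAC arrays. The group means were 11.10 and 11.04 for OTX2, a transcription factor of this lineage, 8.97 and 8.82 for MITF, the regulator of pigment genes, and 10.07 and 9.87 for TYRP1, a melanin enzyme. RPE65, the isomerase of the visual cycle (5.67 and 5.69), BEST1 (5.89 and 5.97) and LRAT (6.14 and 6.05) were dim. RLBP1, a retinoid carrier, had a difference of 0.31 ± 0.08 (adjusted p = 0.0843), which passed in 2 of 14 alternative settings, without the dimmest 33.3% of genes (adjusted p = 0.0417) and without untreated replicate 3 (adjusted p = 0.0395). MITF had one of -0.15 ± 0.06 (adjusted p = 0.215). Untreated replicate 2 was low in the melanin enzyme genes TYR, at 6.88 beside 7.97 and 7.86 on the other untreated arrays, and TYRP1, at 9.48 beside 10.45 and 10.28, but not in the pigment gene PMEL, at 7.17 beside 7.13 and 6.90. Without that array the difference was 0.57 for ALOX5, -0.67 for ALOX5AP and 0.64 for PTGIS.

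Of 12 measured leukocyte markers, CSF1R, a receptor of macrophages, fell (-0.37 ± 0.07, adjusted p = 0.0365), and the other 11 did not pass. That is 8.33% of the markers, beside 3.73% of all genes. TPSAB1 had a difference of -0.38 ± 0.10 (adjusted p = 0.102). CPA3, which was dim, differed the other way by 0.21 ± 0.10 (adjusted p = 0.350). In neither did the groups overlap. CSF1R was called in 6 of 14 alternative settings, and of those without 1 array only in that without untreated replicate 2. The mean level of the 12 markers lay between 6.39 and 6.48 on the untreated arrays and between 6.37 and 6.48 on the FAC arrays, and 6 of the 12 were dim. CD14 (5.26 and 5.30), LYZ (4.85 and 4.86) and CD163 (4.59 and 4.66), which mark monocytes and macrophages, were dim in both groups, and no probe of the table reads 0. CD68, a lysosomal protein of macrophages and many other cells, measured 11.43 and 11.32. All cultures came from the 1 line ARPE-19, so these markers describe genes read in that line and are no count of leukocytes. A link between them and the changes of ALOX5 and ALOX5AP was not tested.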

How the data were processed

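Total RNA (250 ng per culture) from 3 untreated and 3 FAC-treated cultures was amplified and biotin labelled, per the labels' protocols. The authors deposited 1 table of log2 intensities with 53617 probes and 6 columns. The submitters' processing notes list RMA and Partek 6.6 with neither role nor order, and no detection calls or scan dates were used here. That the scale is log2 follows from the values, 2.41 to 14.22. The platform annotation names 16098 probes with 1 gene symbol each. The other 37519 count as unnamed here, and a probe with several symbols would be counted among them. The named probes cover 14884 genes, and for the 779 with several probes the probe of highest mean was used.

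The comparison used limma 3.58.1 (lmFit, then eBayes, R 4.3.3), and 2-sided p-values were adjusted over all 14884 genes by the Benjamini-Hochberg method. Intervals are at 95%. The procedure was tested on simulated data. The 13 gene lists hold 162 genes, 99 of them measured; the members and lists were chosen with earlier results of these data known. From each list the text names up to 6 called members, or the 2 with the smallest p, and beside these it describes other members by their role, chosen after their values were seen. Alternatives were a filter on dim genes, quantile normalization, median centring, a trended robust prior, array weights, the mean of probes, every probe tested, each array left out in turn, and a block for the replicate number. The replicate numbers did not pair the arrays. The series' design text calls the replicates biological.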

Additional observations from a re-analysis of the deposited data

How the results depend on the processing

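The difference of ALOX5 stayed between 0.55 and 0.64 in the 14 alternative settings, and ALOX5AP and PTGIS passed the threshold in all of them. The count of 555 genes called over all genes became 840 without the dimmest 33.3% of genes, 1026 with a trended robust prior and 254 with every probe tested, and lay between 147 and 447 without any 1 array. The count of 6 genes in the wider eicosanoid lists became 10 with the trended prior and 1, PTGIS, with every probe tested, and lay between 2 and 4 without any 1 array. Samples of the same replicate number did not deviate together (correlations of -0.02, -0.03 and -0.15), so the numbers are not taken as pairs; with the replicate number as a block the count over all genes was 184 and that of the wider lists 1, again PTGIS, while ALOX5AP passed (adjusted p = 0.0303). With every probe tested or with the block, ACSL1 (adjusted p = 0.0566 and 0.0518), FADS1 (0.0688 and 0.0600), EGR1 (0.0594 and 0.0518), PTGER4 (0.149 and 0.115) and MGST1 (0.160 and 0.115) were no longer called. PTGS2, the cysteinyl leukotriene receptors and other dim probes give no sure negative result, since signal over background was not analysed here.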

Other observations

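PTGIS was the gene of the eicosanoid lists with the largest difference, and its nearest profile by the measure used for ALOX5 was that of BMP4, which encodes a bone morphogenetic protein (root mean square difference 0.0492). BMP4 measured 10.29, 10.05 and 10.18 in untreated cells and 10.84, 10.89 and 10.78 with FAC, a rise of 0.66 ± 0.07 (SE, adjusted p = 0.00474). In BMP4 and PTGIS the lowest untreated value was that of replicate 2, and no FAC value lay below an untreated one. PCDH18, a protocadherin gene (0.0750), and C1orf116 (0.0898) were also among the 5 nearest, with rises of 0.59 ± 0.07 and 0.75 ± 0.05, as were BCL2L11 and AMOT, which stand near ALOX5 too. This search was made after the values of PTGIS had been seen. It chose genes on these same values, so the order shared by BMP4 and PTGIS is no separate result.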
